A study of Mus musculus with 4 samples.

Results

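The small leucine-rich proteoglycans (SLRPs) are secreted matrix proteins built around a stack of leucine-rich repeats. The 9 genes described here, *Dcn* (decorin), *Bgn* (biglycan), *Lum* (lumican), *Fmod* (fibromodulin), *Ogn* (osteoglycin), *Prelp*, *Aspn* (asporin), *Podn* (podocan) and *Omd* (osteomodulin), were taken by symbol from the 19030 genes measured. They were examined in ingWAT, the subcutaneous white fat depot of the groin, of C57BL/6 mice aged 3 months and housed at 4°C. *Oct3* (*Slc22a3*) encodes an organic cation transporter that takes up catecholamines. Ctrl mice carried loxP-flanked *Oct3* alleles without Cre. The cKO mice carried the same alleles together with Adiponectin-Cre, which is active in adipocytes, so that the other cells of the depot kept the gene. Each genotype had 2 libraries, the number of animals behind a library is not given in the sources used here, and p-values therefore measure only the spread between these libraries.

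SLRP core proteins bind to collagen fibrils and govern how thick and how evenly spaced the fibrils become. Many of them carry a sugar chain, chondroitin or dermatan sulfate on decorin and biglycan and keratan sulfate on lumican and fibromodulin, and several also hold growth factors or act as signals on immune receptors once they are released. In fat depots they are made mainly by fibroblasts and fibroblast-like adipocyte progenitors, which surround the adipocytes with a collagen mesh.

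Expression is given as FPKM, the fragments of a gene scaled by the length of its transcript and the mapped reads of the library, so that levels can be set side by side between genes. The comparison of cKO with Ctrl used limma on log2(FPKM + 1), and a gene was called when its p-value, adjusted by the Benjamini-Hochberg (BH) method over all 12658 genes with a mean of at least 1 FPKM, was under 0.05. Fold changes are cKO against Ctrl on this scale, which understates the change of low genes. As a check of the labels, *Slc22a3* was read at 17.0 and 17.7 FPKM in the Ctrl libraries and at 9.07 and 9.50 FPKM in the cKO libraries, a log2 fold change of -0.83 (limma, BH-adjusted p = 0.000439). The depth was estimated at between 17350000 and 18150000 reads per library. Markers of other tissues also moved with genotype. The summed level of 10 skeletal muscle markers was 2139 and 1424 FPKM in Ctrl against 9.62 and 7.35 FPKM in cKO, and all 9 that could be tested were called lower. White adipocyte markers gave 22792 and 23168 FPKM in Ctrl against 19418 and 19563 FPKM in cKO. Most of this sum was *Fabp4*, which was not called. Of the 9 white adipocyte markers, 4 were called lower, and fewer without either Ctrl replicate. With no filter on low values 2 were called lower, and with quantile normalization 6. Over all genes tested, 13.8% were called lower, 5.75% with no filter and 13.1% with quantile normalization.

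The members lie in 3 gene clusters and at 2 single loci of the mouse genome (GRCm38). On chromosome 10, *Dcn* (chr10:97479500-97518163) and *Lum* (chr10:97565501-97572703) stand in a stretch of 202 kb with the family genes *Kera* and *Epyc*. On chromosome 13, *Aspn* (chr13:49544443-49567565), *Omd* (chr13:49582462-49592612) and *Ogn* (chr13:49608015-49624501) follow *Ecm2* within 120 kb. On chromosome 1, *Prelp* (chr1:133910304-133930102) and *Fmod* (chr1:134037254-134048280) share 151 kb with *Optc*, and *Bgn* (chrX:73483601-73495936) and *Podn* (chr4:108014793-108031954) have no other member beside them. *Prelp*, *Optc* and *Podn* are on the minus strand and the others of these on the plus strand.

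Promoter windows of 300 bases, from 250 before to 50 after an annotated start, were found in the RefSeq set for GRCm38.p6 for 7 of the 9 members, all but *Dcn* and *Lum*. The windows of the chromosome 13 members, which were all lower in cKO, and of the chromosome 1 members, which were not called, are printed 5′ to 3′ on the strand of the gene, so that the promoters of genes that moved and did not move can be compared. Capitals mark the TATA box letters TATAAA, the CCAAT box letters and the GC box letters GGGCGG, each searched on both strands.
Aspn: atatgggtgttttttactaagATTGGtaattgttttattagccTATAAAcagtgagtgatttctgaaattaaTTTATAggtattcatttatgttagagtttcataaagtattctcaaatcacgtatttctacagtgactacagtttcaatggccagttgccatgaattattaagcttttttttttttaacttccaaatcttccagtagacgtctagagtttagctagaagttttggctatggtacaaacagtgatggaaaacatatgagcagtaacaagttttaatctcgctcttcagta
Omd: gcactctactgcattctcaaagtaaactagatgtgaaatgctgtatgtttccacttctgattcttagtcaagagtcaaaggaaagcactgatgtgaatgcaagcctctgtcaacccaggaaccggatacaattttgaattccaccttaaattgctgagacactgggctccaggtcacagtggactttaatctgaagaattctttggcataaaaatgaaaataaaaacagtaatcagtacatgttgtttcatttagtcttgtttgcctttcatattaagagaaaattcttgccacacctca
Ogn: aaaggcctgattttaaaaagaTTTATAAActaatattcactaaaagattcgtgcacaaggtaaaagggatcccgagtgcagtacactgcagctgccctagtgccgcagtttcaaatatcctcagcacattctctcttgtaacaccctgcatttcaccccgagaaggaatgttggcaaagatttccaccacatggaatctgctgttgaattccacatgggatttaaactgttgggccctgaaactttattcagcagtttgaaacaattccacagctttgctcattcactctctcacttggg
Prelp: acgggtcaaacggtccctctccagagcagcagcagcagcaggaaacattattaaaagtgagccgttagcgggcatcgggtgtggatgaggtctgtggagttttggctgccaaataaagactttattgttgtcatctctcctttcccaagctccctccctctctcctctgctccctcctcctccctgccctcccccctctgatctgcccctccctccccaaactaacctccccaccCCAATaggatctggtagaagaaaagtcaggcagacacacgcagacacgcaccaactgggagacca
Fmod: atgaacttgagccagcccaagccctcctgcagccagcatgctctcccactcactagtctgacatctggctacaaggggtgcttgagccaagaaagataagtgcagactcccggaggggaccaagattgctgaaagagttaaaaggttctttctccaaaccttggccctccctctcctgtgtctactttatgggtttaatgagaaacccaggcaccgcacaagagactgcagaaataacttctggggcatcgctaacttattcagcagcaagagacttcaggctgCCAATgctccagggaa
The windows are chr13:49544193-49544492 for *Aspn*, chr13:49582212-49582511 for *Omd*, chr13:49607765-49608064 for *Ogn*, chr1:133921352-133921651 for *Prelp* and chr1:134037004-134037303 for *Fmod*. The *Prelp* window lies inside the gene span given above, at a start downstream of its outer 5′ end. TATAAA was read in the *Aspn* window at 2 places and in the *Ogn* window at 2 places that overlap as TTTATAAA, and it stands in 13.6% of the 32851 promoters searched. CCAAT was found once each in *Aspn*, *Prelp* and *Fmod*, against 37.4% of all promoters. GGGCGG, present in 35.7% of promoters, was in none of the 5 printed windows and was found in those of *Bgn* (3 matches) and *Podn* (2 matches). These are matches of letters anywhere in the window, whatever their distance from the start, and nothing was measured at the promoters.

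The base composition of the windows differed as well. GC content was 31% in *Aspn*, 37.7% in *Omd* and 42.3% in *Ogn*, all under the median of 52.7% over all promoters, whereas *Fmod* (51%), *Prelp* (55.3%) and *Bgn* (63.7%) lay around or above it. *Podn*, which was also lower in cKO, had 77% GC and 41 CpG in its outer promoter, against a median of 7 CpG, and 63% GC and 7 CpG at a second start. Low GC was thus not shared by all members that were lower in cKO.

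All 9 members passed the filter on low values, and 6 were called lower in cKO, 0 higher and 3 in neither direction. Over all genes tested, 25.8% were called, 13.8% lower and 12% higher. *Ogn*, *Aspn*, *Dcn*, *Lum*, *Omd* and *Podn* fell to between 34.0% and 58.8% of the Ctrl mean, while *Bgn*, *Prelp* and *Fmod* were at 101%, 107% and 113% of it. The median log2 fold change of the members was -0.74 (range -1.51 to 0.15) beside -0.01 over all genes tested. The groups did not overlap, with cKO below Ctrl, in 6 members, an order seen in 34.6% of all genes, and with cKO above Ctrl in 2 members, an order seen in 31.9%. Leaving out Ctrl replicate 1 left 5 members called lower, where 3.82% of all genes were, and leaving out Ctrl replicate 2 or cKO replicate 1 left 6, where 6.95% and 8.53% were. With no filter on low values 6 members and 5.75% of all genes were called lower. In bulk tissue, fewer cells of a type and less RNA per cell cannot be told apart.

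**Figure D1:**
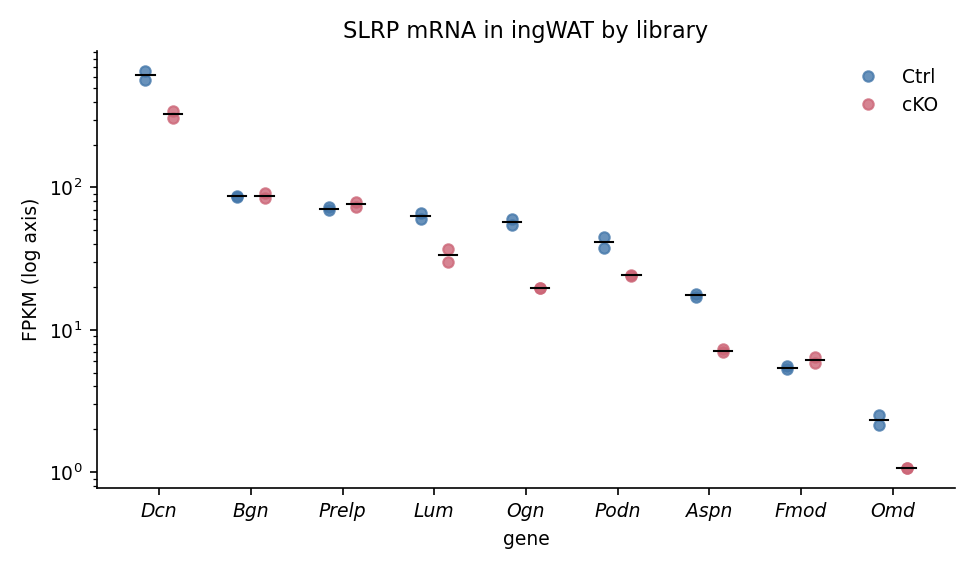
FPKM on a log axis of the 9 SLRP members in each library (one point per library, 2 Ctrl in blue and 2 cKO in red, with a black bar at the mean of each genotype). *Dcn*, *Aspn*, *Lum*, *Omd*, *Ogn* and *Podn* sit lower in both cKO libraries, *Bgn* overlaps between genotypes, and *Prelp* and *Fmod* sit slightly above Ctrl.

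Among the class I members, *Dcn*, the main dermatan sulfate proteoglycan of collagen fibrils, was the most abundant SLRP of the depot. It was read at 662 and 572 FPKM in Ctrl and at 307 and 345 FPKM in cKO. Both Ctrl libraries were well above both cKO libraries, and the spread inside each genotype was small beside the gap between them. The mean went from 617 ± 63.7 (SD, n = 2) to 326 ± 26.9 FPKM (SD, n = 2), a log2 fold change of -0.92 (95% interval -1.14 to -0.69; limma, BH-adjusted p = 0.00103).

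*Aspn* encodes a class I protein with an aspartate-rich stretch that carries no chain of the decorin type. Its values were 17.98 and 16.98 FPKM in Ctrl and 6.98 and 7.30 FPKM in cKO. The replicates of each genotype were close together and the genotypes stood far apart. The mean of *Aspn* was 17.5 ± 0.707 FPKM (SD, n = 2) in Ctrl and 7.14 ± 0.226 FPKM (SD, n = 2) in cKO, and the log2 fold change was -1.18 (95% interval -1.34 to -1.02; limma, BH-adjusted p = 0.000173).

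*Bgn*, the closest relative of *Dcn* and known as a ligand of Toll-like receptors when it is released from the matrix, was read at 87.5 and 86.4 FPKM in Ctrl and at 84.1 and 91.1 FPKM in cKO. The Ctrl libraries lay between the cKO libraries, so the genotypes overlapped. The log2 fold change was 0.01 with a 95% interval of -0.13 to 0.15 (limma, BH-adjusted p = 0.919), and its sign turned to -0.05 when cKO replicate 2 was left out. Within class I, then, the interval for *Bgn* lay clear of those of *Dcn* and *Aspn*.

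Class II holds the keratan sulfate type SLRPs. *Lum*, which keeps collagen fibrils thin and is best known from the cornea, was at 66.06 and 59.99 FPKM in Ctrl and at 30.11 and 36.95 FPKM in cKO. The cKO libraries differed from each other more than in other members but both stayed far below Ctrl. Its log2 fold change was -0.90 (95% interval -1.13 to -0.66; limma, BH-adjusted p = 0.00133), with means of 63.0 ± 4.29 FPKM (SD, n = 2) in Ctrl and 33.5 ± 4.84 FPKM (SD, n = 2) in cKO.

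*Omd*, a keratan sulfate SLRP first known from bone, was the least abundant member. The values were 2.54 and 2.13 FPKM in Ctrl and 1.07 FPKM in both cKO libraries, which corresponds to an estimated 102, 85, 41 and 42 reads. Both Ctrl libraries were above both cKO libraries, at a depth where counting error is largest among the members. *Omd* had a log2 fold change of -0.69 (95% interval -0.96 to -0.41; limma, BH-adjusted p = 0.00609), which the added 1 FPKM makes smaller. With a pseudocount of 0.1 it was -1.05, and the cKO mean was 45.8% of the Ctrl mean, against 52.9% for *Dcn*, 53.2% for *Lum* and 58.8% for *Podn*. Without Ctrl replicate 1 it was -0.60 and no longer passed (limma, BH-adjusted p = 0.0667).

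The remaining class II members did not pass the threshold. *Prelp*, which links basement membranes to the collagen beneath, was at 69.3 and 72.9 FPKM in Ctrl and at 79.0 and 73.5 FPKM in cKO. *Fmod*, which binds collagen I and steers its crosslinking, was at 5.28 and 5.55 FPKM in Ctrl and at 5.83 and 6.44 FPKM in cKO. For both genes the cKO values lay just above the Ctrl values with no overlap. The log2 fold changes were 0.10 (95% interval -0.05 to 0.25; limma, BH-adjusted p = 0.288) for *Prelp* and 0.15 (95% interval -0.04 to 0.35; limma, BH-adjusted p = 0.224) for *Fmod*.

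*Ogn*, the class III member, which is known to influence fibril diameter, had the largest fold change of the 9. Its values were 60.3 and 54.9 FPKM in Ctrl and 19.6 FPKM in both cKO libraries. The cKO libraries were nearly identical and lay far under either Ctrl library. The Ctrl mean of *Ogn* was 57.6 ± 3.83 FPKM (SD, n = 2) and the cKO mean 19.6 ± 0.0283 FPKM (SD, n = 2), at a log2 fold change of -1.51 (95% interval -1.66 to -1.35; limma, BH-adjusted p = 4.64e-05).

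*Podn*, the class V member, is a collagen-binding protein of vessel walls and connective tissue. The Ctrl libraries gave 44.6 and 37.6 FPKM and the cKO libraries 23.8 and 24.4 FPKM. The Ctrl libraries showed the widest gap on the log2 scale of any member, and both were nevertheless above both cKO libraries. The log2 fold change was -0.74 (95% interval -0.94 to -0.54; limma, BH-adjusted p = 0.00144).

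**Figure D2:**
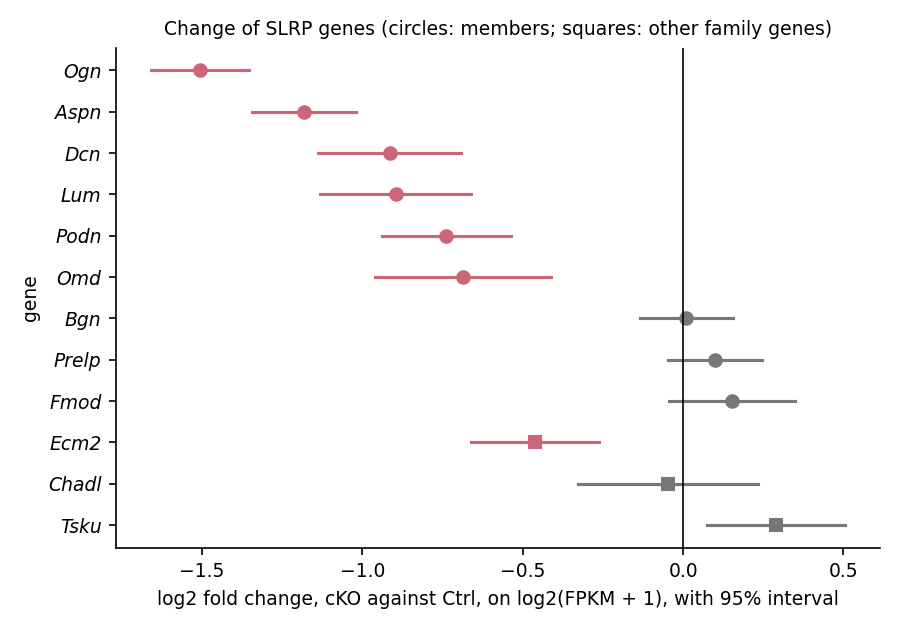
log2 fold change of each member (circles) and of 3 other family genes (squares), cKO against Ctrl on log2(FPKM + 1), with the 95% interval from limma as a line and genes called lower in red. The members called lower run from -1.51 for *Ogn* to -0.69 for *Omd* (-1.05 with a pseudocount of 0.1) with intervals below 0, and the intervals of *Bgn*, *Prelp* and *Fmod* span 0.

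The order of the levels was *Dcn*, *Bgn*, *Prelp*, *Lum*, *Ogn*, *Podn*, *Aspn*, *Fmod* and *Omd* in Ctrl by their means. *Lum* was above *Ogn* in each Ctrl library, at 66.06 and 59.99 FPKM against 60.27 and 54.86 FPKM. The ranges of these genes overlapped between the Ctrl libraries. In cKO only *Ogn* and *Podn* changed places, with *Podn* at 23.8 and 24.4 FPKM above *Ogn* in both libraries. *Dcn* remained several times more abundant than any other member in every library.

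The summed FPKM of the 9 members was 1016 and 908 in Ctrl and 558 and 606 in cKO. This sum made up 0.207% and 0.188% of all FPKM in Ctrl and 0.112% and 0.122% in cKO. *Dcn* supplied 65.2% and 63.0% of the members' sum in Ctrl and 55.1% and 57.0% in cKO. The share of *Bgn* was 8.61% and 9.51% in Ctrl against 15.07% and 15.04% in cKO, and that of *Prelp* 6.83% and 8.02% against 14.2% and 12.1%. The SLRP pool of cKO thus held less decorin transcript and more biglycan and *Prelp* transcript for each unit of SLRP transcript.

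The shares of the lower members showed the opposite side of this. *Ogn* made up 5.93% and 6.04% of the sum in Ctrl and 3.52% and 3.23% in cKO. *Aspn* held 1.77% and 1.87% in Ctrl and 1.251% and 1.205% in cKO, and *Lum* 6.504% and 6.605% against 5.398% and 6.099%. *Podn* was the only member whose share overlapped, at 4.39% and 4.14% in Ctrl and 4.27% and 4.03% in cKO (exact permutation test, two-sided, p = 0.667). The shares of the other 8 members did not overlap between the genotypes, for which an exact two-sided permutation test of 2 against 2 gives p = 0.333, the smallest it can reach (0.375 after BH adjustment over 9 shares). Shares within a sum are tied to each other, and *Dcn* dominates this sum. Without *Dcn* in it, the difference in the share of *Podn* was -2.44 percentage points.

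**Figure D3:**
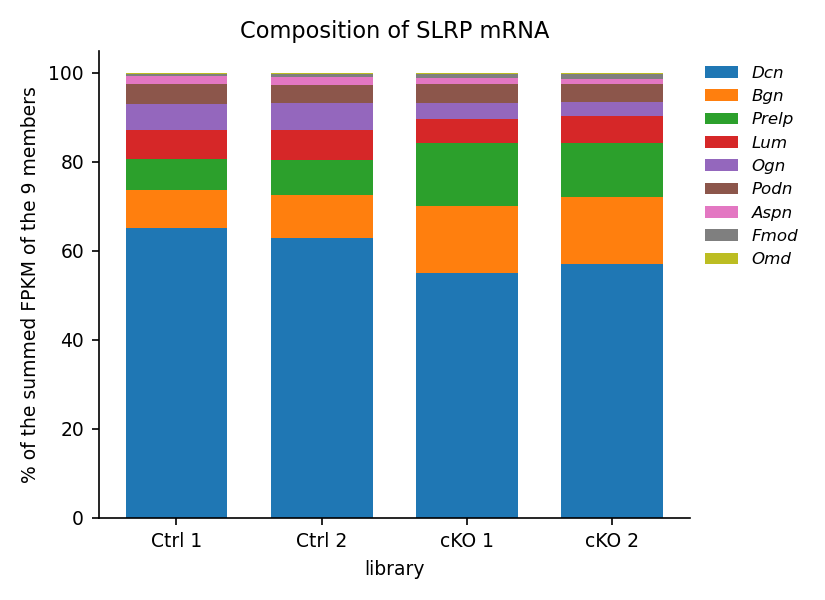
Share of each member in the summed FPKM of the 9 members, in percent, for each of the 4 libraries. *Dcn* takes 63.0% to 65.2% in Ctrl and 55.1% to 57.0% in cKO, and *Bgn*, *Prelp* and *Fmod* together go from 16.0% and 18.1% to 30.3% and 28.2%.

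Ratios inside a library do not depend on the scaling between libraries, and 5 pairs were compared. The relatives *Dcn* and *Bgn* parted, with 7.57 and 6.62 units of *Dcn* for each of *Bgn* in Ctrl and 3.66 and 3.79 in cKO, a log2 difference of -0.93. The chromosome 10 neighbours *Dcn* and *Lum* kept overlapping ratios of 10.02 and 9.54 in Ctrl and 10.2 and 9.35 in cKO (exact two-sided permutation p = 1). The chromosome 1 neighbours *Fmod* and *Prelp* also overlapped, at 0.0761 and 0.0762 in Ctrl and 0.0738 and 0.0876 in cKO (exact two-sided permutation p = 1).

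Within the chromosome 13 cluster all 3 members were lower in cKO, but by unequal amounts. *Ogn* over *Aspn* was 3.35 and 3.23 in Ctrl and 2.81 and 2.68 in cKO. *Ogn* over *Omd* was 23.7 and 25.8 in Ctrl and 18.3 in both cKO libraries. These ratios and that of *Dcn* over *Bgn* did not overlap between genotypes, at the smallest p the exact two-sided permutation test allows (0.333, or 0.556 after BH adjustment over the 5 pairs).

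Genes beside the clusters were looked at to see whether they moved with them. No other tested gene lay within 200 kb of the *Dcn* cluster. Near the *Ogn* cluster there were 5, of which 0 were called lower and 1 higher, and near the *Prelp* cluster 3, of which 1 was called lower and 1 higher. *Cenpp* on the opposite strand spans *Aspn*, *Omd* and *Ogn*, shares 7 exon bases with *Aspn* and 0 with the other members, and was at 0.33 to 0.80 FPKM, too low to be tested. The unlisted *Gm15851* shares 350 of the 3615 exon bases of *Prelp* on the opposite strand, and since the library kit is not stated to mark strand, reads in that stretch cannot be told apart.

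**Figure D4:**
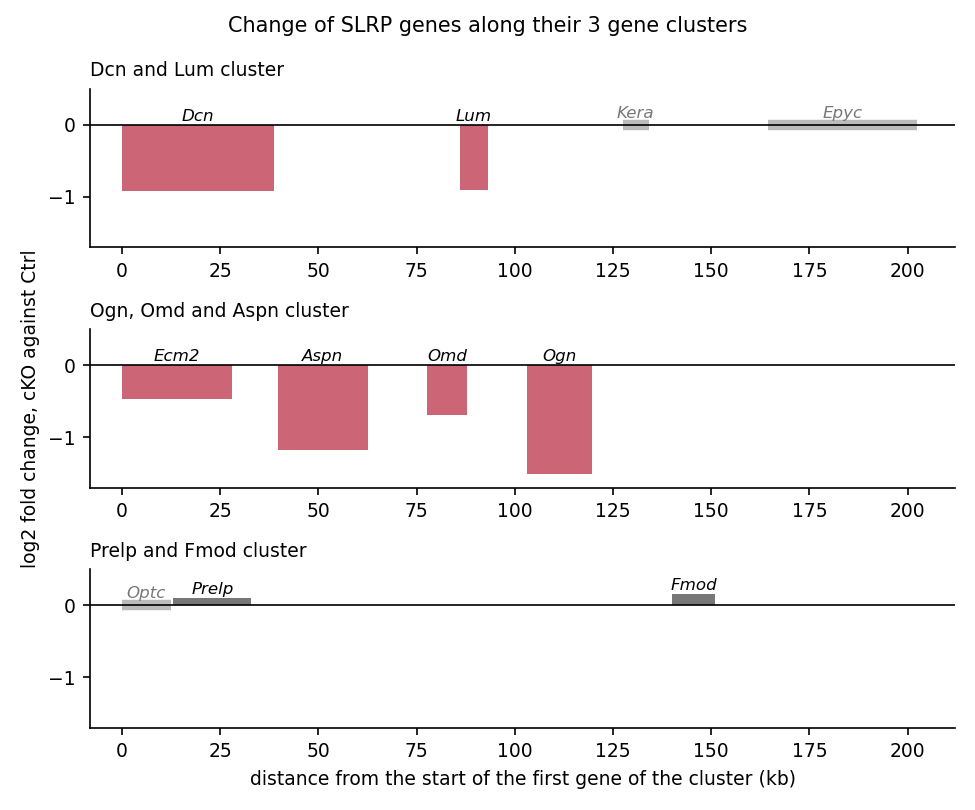
Height of each bar is the log2 fold change of a gene, cKO against Ctrl, and its width is the gene along its cluster in kb (red, called lower; dark grey, not called; light grey at 0, not tested). *Dcn* and *Lum* (-0.92 and -0.90) and *Aspn*, *Omd* and *Ogn* (-1.18, -0.69 and -1.51) lie below 0, as does *Ecm2* (-0.46), whereas *Prelp* and *Fmod* (0.10 and 0.15) lie above it.

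Of 9 further genes of the leucine-rich proteoglycan family, 3 were expressed enough to be tested. *Ecm2*, the cluster neighbour of *Aspn*, fell from 8.30 and 7.42 FPKM in Ctrl to 5.25 and 5.60 FPKM in cKO, with a log2 fold change of -0.46 (limma, BH-adjusted p = 0.00794). This call was lost without Ctrl replicate 1 (-0.39; limma, BH-adjusted p = 0.108) and with no filter on low values (limma, BH-adjusted p = 0.0522). *Tsku* (tsukushi) was at 5.31 FPKM in both Ctrl libraries and at 7.27 and 6.20 FPKM in cKO, and its log2 fold change of 0.29 missed the threshold (limma, BH-adjusted p = 0.0558), which it passed with a minimum of 5 FPKM (0.0425), with the replicate number as a block (0.0462) and without cKO replicate 2 (0.39, 0.0366). *Chadl* was at 1.5 and 1.45 FPKM in Ctrl and 1.54 and 1.26 FPKM in cKO. The cornea, eye and cartilage members *Kera*, *Epyc*, *Optc*, *Nyx* and *Chad*, together with *Podnl1*, had means under 1 FPKM.

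The enzymes that build and modify SLRPs were examined next. For this and each later list, the share over all genes tested was 13.8% called lower and 12% called higher. With no filter on low values, 5.75% of all genes were called lower. Each fit with a library left out also called fewer of all genes, so lost calls are not particular to a list. Of 22 enzymes that make the chondroitin and dermatan sulfate chains carried by decorin and biglycan, 19 were tested, 9 were called lower and 0 higher (median log2 fold change -0.29). *Dse*, the epimerase that turns chondroitin into dermatan sulfate, was at 13.9 and 12.4 FPKM in Ctrl and 8.66 and 8.87 FPKM in cKO (-0.53; limma, BH-adjusted p = 0.0032). Its relative *Dsel* went from 2.87 and 2.67 to 1.53 and 1.54 FPKM (-0.57; limma, BH-adjusted p = 0.00713). *Ust*, which sulfates the uronic acid of these chains, went from 6.17 and 5.37 to 3.73 and 3.69 FPKM (-0.52; limma, BH-adjusted p = 0.00689). None of the 9 calls held without Ctrl replicate 1, when *Dse* was at -0.46 (limma, BH-adjusted p = 0.0592), and 3 enzymes were called lower without Ctrl replicate 2, 5 without cKO replicate 1 and 5 with no filter, where *Ust* lost the call (limma, BH-adjusted p = 0.0503).

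Keratan sulfate and tyrosine sulfation enzymes act on lumican, fibromodulin and their relatives. Of 9 listed, 7 were tested, 2 were called lower and 0 higher, with a median of -0.03. *Chst1*, the keratan sulfate galactose sulfotransferase, was at 44.4 and 41.4 FPKM in Ctrl and at 30.2 and 31.2 FPKM in cKO (-0.47; limma, BH-adjusted p = 0.00225). *Tpst1*, a tyrosine sulfotransferase, was at 27.3 and 25.8 FPKM in Ctrl and at 19.4 and 23.1 FPKM in cKO (-0.31; limma, BH-adjusted p = 0.0415), and its call was lost without Ctrl replicate 1, Ctrl replicate 2 or cKO replicate 1, with no filter (limma, BH-adjusted p = 0.142) and with eBayes without a trend (0.0761).

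Several SLRP precursors, decorin and biglycan among them, lose a propeptide to *Bmp1*, a protease that also trims procollagens. Of 5 genes listed around *Bmp1*, with its procollagen enhancers, all 3 that were tested were called lower. Only *Bmp1* among these 3 is the protease itself. *Bmp1* was at 20.3 and 16.9 FPKM in Ctrl and 10.3 and 10.5 FPKM in cKO (-0.78; limma, BH-adjusted p = 0.00153). *Pcolce2* and *Pcolce*, enhancers of this protease on procollagen, had log2 fold changes of -1.004 and -0.71 (limma, BH-adjusted p = 0.000724 and 0.00265). The calls of all 3 genes held when any library was left out.

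Among 15 collagens and matrix proteins that SLRPs bind or organise, 14 were tested, 12 were called lower and 0 higher, with a median of -0.53. *Col5a1*, the chain that starts thin fibrils, fell from 26.4 and 22.6 to 14.6 and 14.9 FPKM (-0.69; limma, BH-adjusted p = 0.00162). *Col5a3* fell from 49.5 and 45.9 to 29.4 and 31.4 FPKM (-0.64; limma, BH-adjusted p = 0.00107), and *Col14a1*, a fibril-associated collagen, from 7.74 and 6.28 to 4.18 and 4.01 FPKM (-0.65; limma, BH-adjusted p = 0.00503). *Col1a1*, the main fibrillar chain, was at 140 and 116 FPKM in Ctrl and 113 and 106 FPKM in cKO and was not called (-0.22; limma, BH-adjusted p = 0.127). The other gene not called was *Eln*. Without Ctrl replicate 1, 6 genes of the list were called lower, and *Col14a1* was not among them (-0.52; limma, BH-adjusted p = 0.0684). With no filter 9 were called lower, again without *Col14a1* (limma, BH-adjusted p = 0.0522).

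Receptors and growth factors that SLRPs are known to bind moved in both directions. Of 15 listed, 13 were tested, 5 were called lower and 2 higher, beside 13.8% and 12% of all genes tested. *Egfr*, a receptor that decorin binds, fell from 11.9 and 10.97 to 6.57 FPKM in both cKO libraries (-0.72; limma, BH-adjusted p = 0.00102). *Cd14* and *Tlr4*, parts of the receptor complex through which biglycan signals, were also lower (-0.63 and -0.49; limma, BH-adjusted p = 0.0014 and 0.00774), though *Tlr4* lost the call without either Ctrl replicate and with no filter (0.0511), while *Tlr2* was at 4.17 and 3.94 FPKM in Ctrl and 3.90 and 3.68 FPKM in cKO (-0.08; limma, BH-adjusted p = 0.552). *Cd44*, a matrix receptor, rose from 8.19 and 8.31 to 13.1 and 13.9 FPKM (0.65; limma, BH-adjusted p = 0.00114), and the other gene called higher was *Tgfb1*. The count called lower was 2 without Ctrl replicate 1 or with no filter and 3 without cKO replicate 1.

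Proteases that cut SLRPs included 6 tested genes of 7, with 3 called lower and 0 higher. *Adamts5* fell from 16.7 and 15.9 to 7.21 and 6.97 FPKM (-1.10; limma, BH-adjusted p = 0.000198). *Mmp2*, a gelatinase that also cleaves decorin, fell from 81.2 and 69.6 to 44.4 and 45.4 FPKM (-0.73; limma, BH-adjusted p = 0.00124). *Mmp14* had a log2 fold change of -0.42 (limma, BH-adjusted p = 0.00605) and lost the call without Ctrl replicate 1. Over all 82 pathway genes, 65 were tested, 35 were called lower and 2 higher, against 13.8% and 12% of all genes, and without Ctrl replicate 1 the count called lower was 14.

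**Figure D5:**
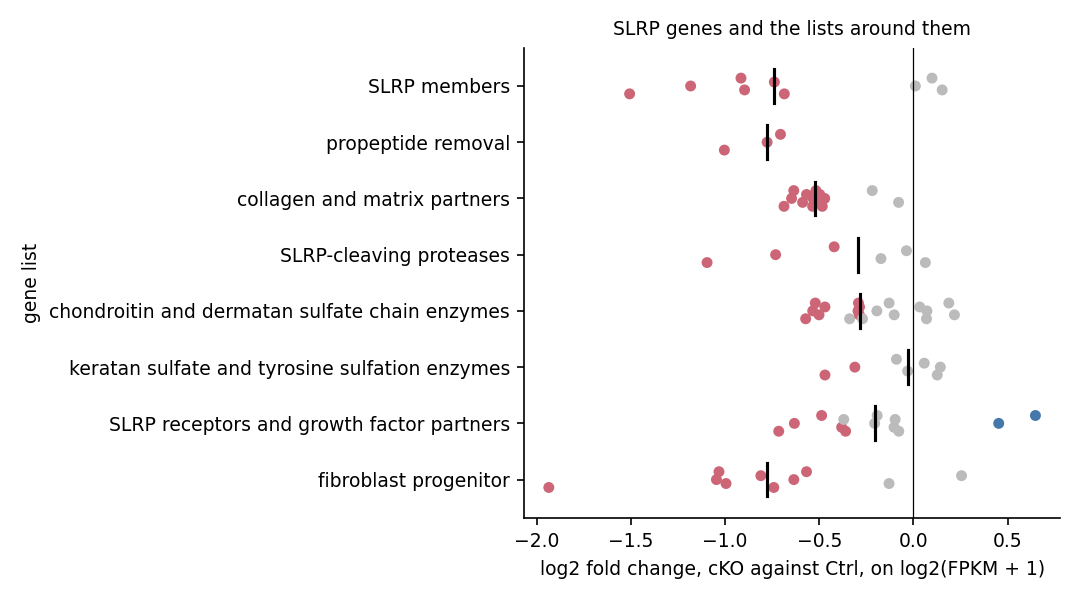
log2 fold change of every tested gene of the SLRP members, the pathway lists and the fibroblast progenitor markers, cKO against Ctrl on log2(FPKM + 1), one point per gene (red, called lower; blue, called higher; grey, not called) with a black bar at the median of the list. The matrix partners (median -0.53) and the propeptide removal list (*Bmp1*, *Pcolce* and *Pcolce2*, median -0.78) lie below 0. The receptors (median -0.21) spread to both sides.

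Genes whose profile over the 4 libraries was nearest to the median profile of the members were ranked among 6207 genes with a mean of at least 10 FPKM. The median member by fold change was *Podn* (-0.74). The median profile thus resembles *Podn* and not *Ogn* (-1.51), *Aspn* (-1.18) or *Bgn* (0.01). The nearest 5 were *Mmp2*, *Dpp4*, *Serping1*, *Figf* and *Bmp1*, with root mean squared differences of 0.00843 to 0.0229 on the log2 scale. *Dpp4*, a surface marker of early adipocyte progenitors, was at 14.5 and 12.3 FPKM in Ctrl and 7.54 and 7.65 FPKM in cKO. *Serping1*, the C1 inhibitor, was at 241 and 203 FPKM in Ctrl and 134 and 135 FPKM in cKO. *Figf*, the growth factor also called *Vegfd*, was at 17.9 and 15.7 FPKM in Ctrl and 9.65 and 9.86 FPKM in cKO. With 4 libraries, such likeness is a description of these samples.

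Markers of the cells that could hold SLRP transcripts were read beside the members. Of 10 fibroblast progenitor markers, 8 were called lower and 0 higher, with a median of -0.78, and their summed level was 1122 and 980 FPKM in Ctrl against 635 and 640 FPKM in cKO. *Ly6a* (-0.13) and *Thy1* (0.26) were the markers not called, and *Fbn1* also stands in the list of matrix partners. With a minimum of 5 FPKM and with median-of-ratios scaling, 1 marker was called higher, where 16.6% and 13.0% of all genes were. Without Ctrl replicate 1, 5 were called lower. How far the fall of the members follows this list was not tested.

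The skeletal muscle markers given above were near 0 in cKO, and muscle carries its own connective tissue. When FPKM was rescaled after leaving out these muscle genes, the same number of members, 6, was called lower, where 14.1% of all genes were. The median log2 fold change of the members was again -0.74. This step alters only the scaling, and by little, with *Dcn* going from -0.915 to -0.921. It cannot address member transcripts that come from muscle connective tissue. The part of muscle connective tissue in the levels of the members was not tested. Tendon is rich in *Fmod*, *Lum* and *Dcn*, and its part in the levels of the members was not tested either. The 6 tendon markers summed to 2.87 and 2.42 FPKM in Ctrl and 0.93 and 1.33 FPKM in cKO, with no single value above 1.66 FPKM. All were too low to be tested in the main fit. With no filter, 1 of them was called lower and 0 higher, where 5.75% of all genes were called lower. The 5 cartilage and bone markers that were listed summed to between 0.51 and 0.57 FPKM.

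The remaining marker lists were read in the same way. Smooth muscle and pericyte markers summed to 143 to 160 FPKM over the 4 libraries, with 3 of 7 called lower and 1 higher, and endothelial markers to 200 and 198 FPKM in Ctrl against 170 and 177 FPKM in cKO, with 3 of 6 called lower. Without Ctrl replicate 1, Ctrl replicate 2 or cKO replicate 1, only 1 gene of each of these lists was called lower and 0 higher, and with no filter 1 smooth muscle and pericyte marker and 2 endothelial markers were. Macrophage markers summed to 756 and 686 FPKM in Ctrl and 759 and 789 FPKM in cKO, with 3 of 6 called lower and 1 higher. Most of this sum was *Lyz2*, which was not called. B cell markers were called higher in 5 of 5, or 2 without Ctrl replicate 1 or with no filter. T cell markers were called higher in 4 of 5, but in 0 without Ctrl replicate 1 or with no filter, 1 without Ctrl replicate 2 and 2 without cKO replicate 2. All 6 brown and beige adipocyte markers were called higher, with sums of 1345 and 1570 FPKM in Ctrl against 4193 and 3527 FPKM in cKO. Schwann and nerve markers were called lower in 3 of 4 listed and higher in 1, with sums of 96.0 and 89.9 FPKM in Ctrl and 47.0 and 47.5 FPKM in cKO. Without Ctrl replicate 1, 1 was called lower and 0 higher, and with no filter or without cKO replicate 1, 2 were called lower and 0 higher. Keratinocyte and mammary epithelial markers summed to no more than 2.47 FPKM in any library.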

How the data were processed

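The authors sequenced polyadenylated RNA of ingWAT as 50-base single-end reads. The authors deposited FPKM for each gene in each of the 4 libraries. The submitters' processing notes name HISAT2 2.0.4, RSEM 1.2.12 and mm10. No scaling between libraries is stated, and no read counts were used. Libraries were assigned to Ctrl and cKO by their titles, and 0 columns were left unmapped. The depth was estimated from the FPKM steps of 319 genes of at most 400 bases, where 83.3% to 89.6% of the values came out whole within 0.1 read. Over genes whose FPKM averaged 1 or more, limma 3.58.1 (R 4.3.3, eBayes with a trend) was run on log2(FPKM + 1), with Benjamini-Hochberg adjustment over 12658 genes, after the procedure was tested on simulated data. Shares and ratios were tested with the exact permutation test, two-sided, in scipy 1.17.1. Tables and plots were made in python 3.11.15 (matplotlib 3.10.9, numpy 2.4.6, pandas 2.3.3). Positions and promoters came from RefSeq GRCm38.p6, in which 18977 of the 19030 gene IDs were found. Exon overlaps came from GENCODE.

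The members, the lists and the tests were chosen with earlier results of these data known. Named genes are all members, all listed family genes, *Bmp1*, *Dse*, *Col1a1*, *Tlr2*, *Tlr4* and *Mmp2*, *Slc22a3* and the 5 nearest profiles. From each pathway list, up to 3 called genes without overlap were added, those with the largest absolute change on log2(FPKM + 1). That scale ranks low genes behind, such as the chain enzyme *Csgalnact1*, with cKO at 54.3% of the Ctrl mean. Other genes that are named, such as *Eln*, *Tgfb1*, *Ly6a* and *Thy1*, were named after their values were seen. Alternatives were no filter or a minimum mean of 5 FPKM, a pseudocount of 0.1, quantile normalization, median-of-ratios scaling, scaling without muscle genes, eBayes with no trend, the replicate number as a block, each library left out in turn and, for the shares, a sum without *Dcn*.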

Additional observations from a re-analysis of the deposited data

How the results depend on the processing

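The 5 members *Dcn*, *Aspn*, *Lum*, *Ogn* and *Podn* kept their direction and call in all 12 alternatives, with limma BH-adjusted p of at most 0.0388. *Omd* lost the call without Ctrl replicate 1 and was not tested with a minimum of 5 FPKM, where 5 members were called. In each other alternative that kept all libraries, 6 members were called. The median log2 fold change of the members tested was -0.91 with a pseudocount of 0.1 and ran from -0.86 to -0.62 with a library left out. Over all genes, 3269 were called (1750 lower, 1519 higher), against 1762 with no filter (1095 lower, 667 higher) and 787 to 2340 with a library left out (lower 484 to 1379, higher 303 to 1072), the fewest, 787, without Ctrl replicate 1, then 1478 without Ctrl replicate 2 and 2152 without cKO replicate 1. Pathway genes called numbered 16 to 34 with a library left out, 14 to 30 of them lower and 2 to 4 higher, and 23 were called lower with no filter. A left-out library leaves a lone sample that is assumed to vary like the others. The sign turned for *Bgn* without cKO replicate 2 (-0.0470, range -0.0470 to 0.0675 with a library left out) and for *Chadl* with quantile normalization (0.0279) and without cKO replicate 2 (0.0375, range -0.131 to 0.0375 with a library left out). The other fits gave 3315 genes with median-of-ratios scaling and 2884 with eBayes without a trend. With the replicate number as a block, 3383 genes, 6 members and 38 pathway genes were called. The correlation of the replicate differences between genotypes was 0.0148 over 12658 genes. The labels give only a replicate number, so whether the samples were paired is not known, and the main fit did not pair them. The cause of these differences was not tested. Depth limits *Omd* most, at 41 to 102 estimated reads.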
